A study of Rattus norvegicus and Mus musculus with 14 samples.

Results

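The comparison described here is that of NMDA with control in the nitric oxide synthase (NOS) inhibitor set, a pair of experiments on rat embryonic cortical neuron cultures. It takes 4 of the 14 arrays of the series, chosen by their titles as the control and the NMDA array of experiment 1 and of experiment 2, and pairs them by experiment number. The control cultures were treated with a solution that the labels call CSS, and the NMDA cultures with N-methyl-D-aspartate, which activates one class of glutamate receptor and gives it its name. Each experiment also held 1 array of cultures given NMDA together with nitroarginine, an inhibitor of NOS. In the main fit of NMDA against control these arrays enter only the estimate of the spread. They also enter some of the other settings, and their values are shown for a few genes below. The labels give no dose, duration, embryonic age or strain, and do not say whether the experiments were separate cultures, so the p-values cover only how these arrays vary, and that variation may be technical. The other arrays belong to a second set with the MEK inhibitor PD98059 and to the cortex of adult mice.

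NMDA receptors are ligand-gated channels that let calcium into neurons when glutamate and a coagonist bind and the membrane is depolarised. In cortical neurons the calcium signal reaches nitric oxide synthase, which is held near the receptor by the scaffold protein PSD-95, as well as kinases of the Ras and MAP kinase pathway, mitochondria and the nucleus. The response to the agonist is best known for the immediate early genes, but the array carried no named probe for Fos, Arc, Egr1, Bdnf, Nos1 or a subunit of the NMDA receptor. What it could show was the level of structural, metabolic, translation, chaperone, trafficking and signalling genes.

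Each array held 1152 probes, of which 384 carried 1 gene symbol (342 genes). The deposited values were scores within an array with a mean of 0, so a value of 1 lies about 1 SD above the average probe of its array, and differences are given in these Z units. No fold change can be derived from them, and values of different probes cannot be ranked as transcript levels.

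Experiment 2 stood apart from experiment 1 and had to be read separately. The control and NMDA arrays of experiment 1 correlated at r = 0.991 across probes, and those of experiment 2 at 0.894. Across experiments the control arrays correlated at 0.491 and the NMDA arrays at 0.617. Of the sum of squares over the 4 arrays, 87.8% lay between experiments, 6.20% between NMDA and control, and 6.03% in the difference between experiments in the NMDA difference. The share of NMDA was therefore about as large as the share by which the experiments differed about it. Moving the rows of the experiment 2 arrays up or down by as many as 24 probes did not raise their correlation with the median array, so no shifted column was found among these 4.

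NMDA minus control had an SD over probes of 0.133 Z units in experiment 1 and 0.444 in experiment 2, a ratio of 3.33. In experiment 1, 136 probes differed by more than 0.2 Z units and 3 by more than 0.5. In experiment 2 these counts were 768 and 291. Between the experiments the differences had Pearson's r = 0.0244 and Spearman's rho = 0.0382 over the 1152 probes, which are not independent replicates. The sign was the same in 578 probes and opposite in 574. In experiment 1 530 probes (46.0%) were higher under NMDA, and in experiment 2 652 (56.6%). Of all probes, 304 (26.4%) were higher in both experiments and 274 (23.8%) were lower in both. With each array centred on its median these counts were 507 and 128. Of the 384 probes with 1 gene symbol, 117 (30.5%) were higher in both and 82 (21.4%) lower in both. These shares are the background for every list of genes below.

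**Figure D1:**
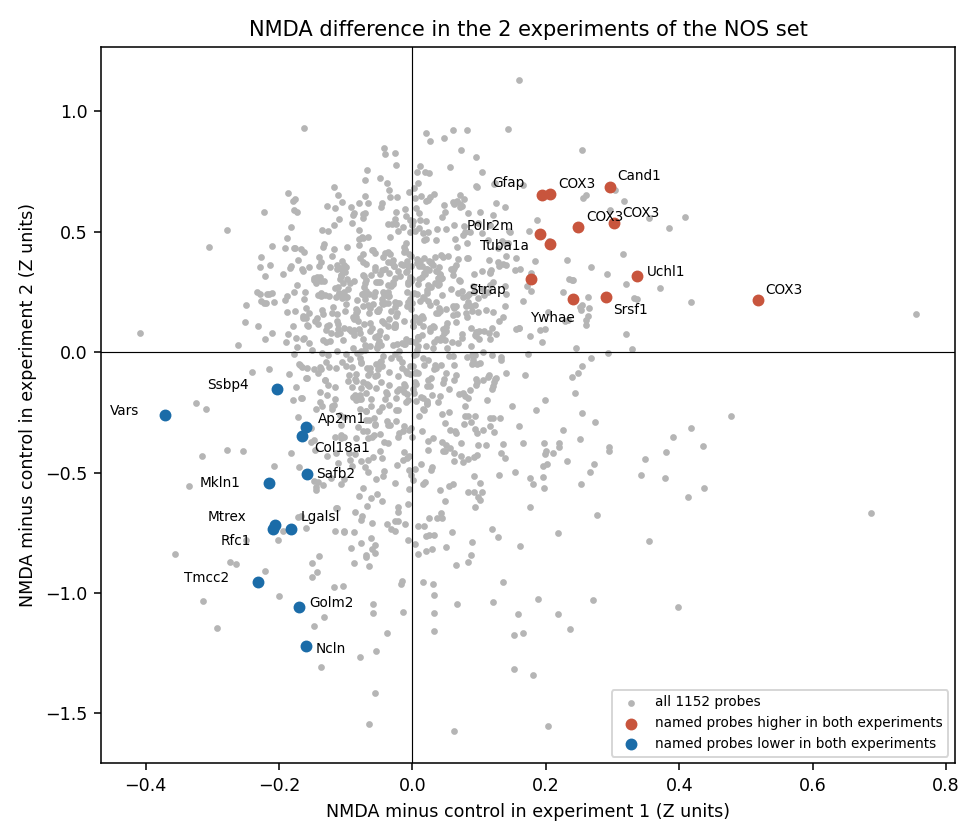
NMDA minus control in experiment 1 (horizontal axis) and experiment 2 (vertical axis), both in Z units and on different scales, for all 1152 probes (grey) and for the 12 named probes each way with the largest difference held in both experiments (colour). The cloud shows no slope (r = 0.0244) and is 3.33 times as wide in experiment 2.

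Limma with the experiment as a block called 0 of 1152 probes (0%) for NMDA against control at an adjusted p under 0.05. At an unadjusted p under 0.05 there were 76 probes (6.60%), 26 of them higher (2.26%) and 50 lower (4.34%), and 27 of the 76 had 1 gene symbol. No gene below passed the test, and each is given by its values. Over the 24 probes named for the same direction in both experiments, the adjusted p ran from 0.673 to 0.844.

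Among named genes, the mitochondrial transcript COX3 had the most probes with a higher value under NMDA, but it also had the most probes of any gene. COX3 is encoded in mitochondrial DNA and forms a core subunit of cytochrome c oxidase, the last complex of the respiratory chain. It was measured by 7 probes, and all 7 were higher in experiment 1, by 0.17 to 0.52 Z units. In experiment 2, 6 of the 7 were higher, and the differences ran from -0.25 to 0.69.

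Probe 1034 of COX3 read 0.13 in control and 0.43 under NMDA in experiment 1, and 1.52 and 2.06 in experiment 2. Its mean difference was 0.42 (SE 0.18, n = 2 experiments, limma adjusted p = 0.673). The SEs here and below are limma's moderated ones. They draw largely on the spread over all probes, and are not a probe's own spread between experiments. Probe 1022 went from 0.06 to 0.31 and from 1.33 to 1.85, a mean of 0.38 (SE 0.18). The means of probes 1034 and 1022 were 0.23 and 0.195 after quantile normalization and 0.23 and 0.25 with a running median over 25 probes removed. Within each experiment the NMDA array was the higher, but both experiment 1 arrays lay below both experiment 2 arrays, so the groups overlapped when the experiments were pooled.

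COX3 probe 904 read 0.14 and 0.35 in control and NMDA of experiment 1 and 0.34 and 0.996 in experiment 2. Here both NMDA arrays lay above both control arrays, by a narrow margin. On probe 843 the order was -0.20 and 0.32, then 1.71 and 1.92, and probe 421 read 0.83 and 0.99, then 1.28 and 1.97. The exception was probe 966, which went from 0.93 to 1.18 in experiment 1 and from 2.69 to 2.44 in experiment 2. Probes 966 and 350 were the brightest of the 7 in experiment 2, and probe 350 differed there by only 0.04. The direction in experiment 2 of the brighter probes depended on the scaling. Scaled to SD 1, probe 843 was at -0.05 and probe 350 at -0.39, and quantile normalized they were at -0.05 and -0.08. The 7 probes are of 1 gene and are not 7 independent results.

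**Figure D2:**
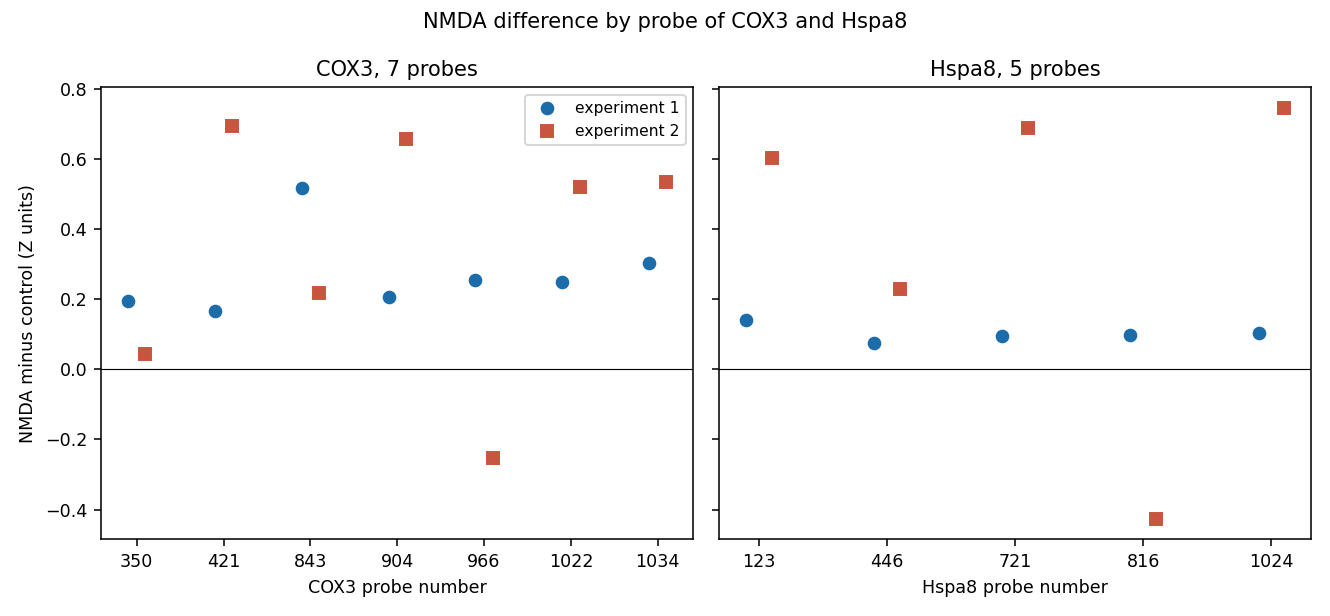
NMDA minus control in Z units for each probe of COX3 and of Hspa8, with circles for experiment 1 and squares for experiment 2. All 12 points of experiment 1 lie above 0, while probe 966 of COX3 and probe 816 of Hspa8 lie below 0 in experiment 2.

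Other named genes higher under NMDA in both experiments included neuronal and signalling genes. Uchl1, an abundant ubiquitin hydrolase of neurons, read 1.08 in control and 1.42 under NMDA in experiment 1, and 1.89 and 2.21 in experiment 2 on probe 1074. The mean difference was 0.33 (SE 0.18, adjusted p = 0.673 in limma), and it was nearly the same in both experiments, at 0.34 and 0.31. In experiment 2 it was only 0.02 when the arrays were scaled to SD 1 or quantile normalized. Its second probe was at -0.005 and 0.67, so only experiment 2 was higher on both.

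Cand1, which exchanges the substrate receptors of cullin ubiquitin ligases, read -0.16 and 0.13 in experiment 1 and 0.28 and 0.97 in experiment 2 on probe 259, a mean of 0.49 (SE 0.18). This was the largest mean among the 12 named probes higher in both. The other Cand1 probes were at -0.08 and -0.12 in experiment 1 and at 0.51 and 0.36 in experiment 2. All 3 probes were thus higher in experiment 2, but only 1 in experiment 1.

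Tuba1a, an alpha-tubulin of growing neurites, went from 0.51 to 0.72 and from 1.07 to 1.52. Ywhae, an adaptor that binds phosphorylated proteins, went from -0.18 to 0.06 and from 0.94 to 1.16 on probe 347, and its second probe was higher by 0.14 and 0.15. The 4 Ywhae differences lay between 0.14 and 0.24, the narrowest range of the 3 genes with every probe higher in both. In experiment 2, however, quantile normalization turned them to -0.09 and -0.06.

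Gfap, the intermediate filament of astrocytes, read -0.20 and -0.002 in experiment 1 and -0.17 and 0.49 in experiment 2 on probe 888. Both NMDA arrays were above both controls on that probe, with a mean difference of 0.42 (SE 0.20). The second Gfap probe was higher by 0.18 and 0.07. Gfap, Sub1 and Ywhae were the 3 of the 27 genes with several probes for which every probe was higher in both experiments; for none was every probe lower in both.

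The remaining named probes of this kind were for genes of RNA handling and transcription. Srsf1, a splicing factor, read -1.31 and -1.03, then -1.79 and -1.56. Strap, a WD-repeat protein that assembles splicing complexes, read 1.33 and 1.50, then 2.14 and 2.44. Polr2m, a subunit associated with RNA polymerase II, read -1.23 and -1.04, then -1.56 and -1.07, and its experiment 2 difference of 0.49 became -0.27 once a local median over neighbouring probes was removed. That of Srsf1 became -0.06 in the same setting. Strap turned to -0.03 in experiment 2 when arrays were scaled to SD 1.

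Among named genes lower under NMDA in both experiments, Vars had the largest difference held in both. It encodes valyl-tRNA synthetase, which charges the transfer RNA of valine. It read 0.17 in control and -0.20 under NMDA in experiment 1, and 0.50 and 0.24 in experiment 2, a mean of -0.32 (SE 0.18, limma adjusted p = 0.673). The NMDA array was lower within each experiment, but NMDA of experiment 2 lay above control of experiment 1. With a local median over neighbouring probes removed, its experiment 2 difference was 0.09.

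The next genes had a larger difference in experiment 2 than in experiment 1, as probes in general did. Ncln, a membrane protein of the endoplasmic reticulum, read -0.81 and -0.97 in experiment 1 and -0.19 and -1.40 in experiment 2, a mean of -0.69 (SE 0.22, unadjusted p = 0.00709 in limma). Tmcc2, another protein of those membranes, read -0.85 and -1.09, then -0.09 and -1.05. Golm2, a Golgi membrane protein, read -0.42 and -0.59, then -0.01 and -1.06. In all 3 both NMDA arrays lay below both control arrays, which held for 53 of all probes (4.60%), while 66 (5.73%) had both NMDA arrays above both controls. Named probes made up 18 and 20 of these.

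Mtrex, the RNA helicase that feeds the nuclear exosome, read -0.66 and -0.86 in experiment 1 and 0.43 and -0.30 in experiment 2. Rfc1, the large subunit of the clamp loader of DNA replication and repair, read -0.95 and -1.15, then -0.45 and -1.17. Safb2, a nuclear matrix protein, read -0.40 and -0.55, then 0.15 and -0.35. Of these 3, only Rfc1 had both NMDA arrays below both controls.

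Ap2m1, the subunit of the clathrin adaptor that reads sorting signals of endocytic cargo, was lower by 0.16 and 0.31. Mkln1, an intracellular protein of a ubiquitin ligase complex, was lower by 0.21 and 0.54, and both its NMDA arrays lay below both controls. For Lgalsl, a galectin-like protein, the values were -0.18 and -0.73, for Col18a1, a basement membrane collagen, -0.17 and -0.35, and for Ssbp4, a DNA-binding cofactor, -0.20 and -0.15. Leaving out 1 array at a time turned the sign of the mean difference of none of the 24 named probes. These probes were chosen for the same sign in both experiments, so this outcome was largely fixed by the choice and is no support. With a local median over neighbouring probes removed, the mean difference of Polr2m turned to -0.05.

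**Figure D3:**
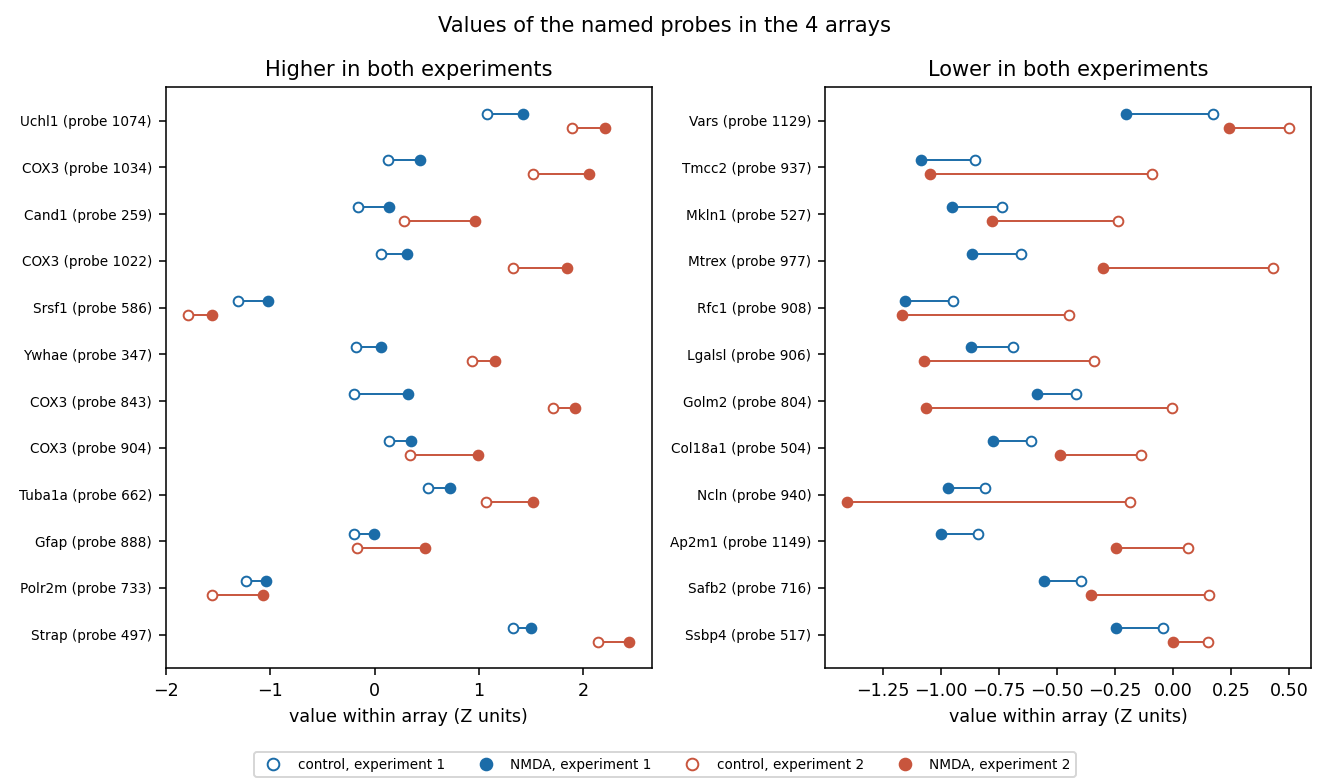
Values in Z units of the 24 named probes in each array, with open circles for control, filled circles for NMDA, blue for experiment 1 and red for experiment 2. For COX3 probe 843 the experiments lie apart, at -0.20 and 0.32 against 1.71 and 1.92, while for Ncln experiment 2 alone spans -0.19 to -1.40.

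The difference of experiment 2 followed the order of the probes in the deposited table. Neighbouring probes had differences that correlated at r = 0.50 in experiment 2 and 0.12 in experiment 1. Between probes 12 places apart r was 0.46 and 0.19, while for probes 6 apart it was 0.28 and 0.01. In experiment 2, 91 of the 96 probes from 577 to 672 were higher under NMDA, but only 16 of the 96 from 769 to 864, with medians of 0.34 and -0.41. In experiment 1 the medians of the same stretches were -0.0002 and -0.01. The median of experiment 2 was again low between probes 913 and 1008, at -0.31 to -0.59 in steps of 24 probes. Of the 12 named probes lower in both experiments, 4 lie in these low stretches, those of Golm2, Tmcc2, Ncln and Mtrex, against 1 of the 12 higher in both, COX3 probe 843. Of the 12 higher in both, Srsf1 and Tuba1a lie in the high stretch from 577 to 672. None of the 12 lower in both does. Stretches of 24 probes elsewhere were also high in experiment 2. Polr2m lies in 721 to 744 (median 0.62) and COX3 probe 1022 in 1009 to 1032 (0.41). COX3 probe 1034 lies in 1033 to 1056 (0.32) and Gfap probe 888 in 865 to 888 (0.31). No named probe lower in both lies in these. Other stretches of 24 probes were low. Safb2 lies in 697 to 720 (median -0.37), and Vars and Ap2m1 lie in 1129 to 1152 (-0.24). No named probe higher in both lies in those. With the running median removed, the mean of Gfap probe 888 was 0.26 and that of COX3 probe 1034 was 0.23. As deposited, each was 0.42. Of the 20 named probes with both NMDA arrays above both controls, 8 lie in the stretch from 577 to 672. Of the 18 with both below, 9 lie in the low stretches from 769 to 864 and from 913 to 1008. With a running median over 25 probes removed, the mean differences of Golm2, Tmcc2, Ncln and Mtrex were -0.21, -0.34, -0.45 and -0.18, against -0.61, -0.59, -0.69 and -0.47 as deposited. With a local median on a grid of 12 probes per row removed they were -0.39, -0.47, -0.57 and -0.29. The mean of 12 of the 24 named probes shrank by more than 1.5 times under the running median and that of 11 under the grid median, Tuba1a (0.33 to 0.17 and 0.16) among both.

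**Figure D4:**
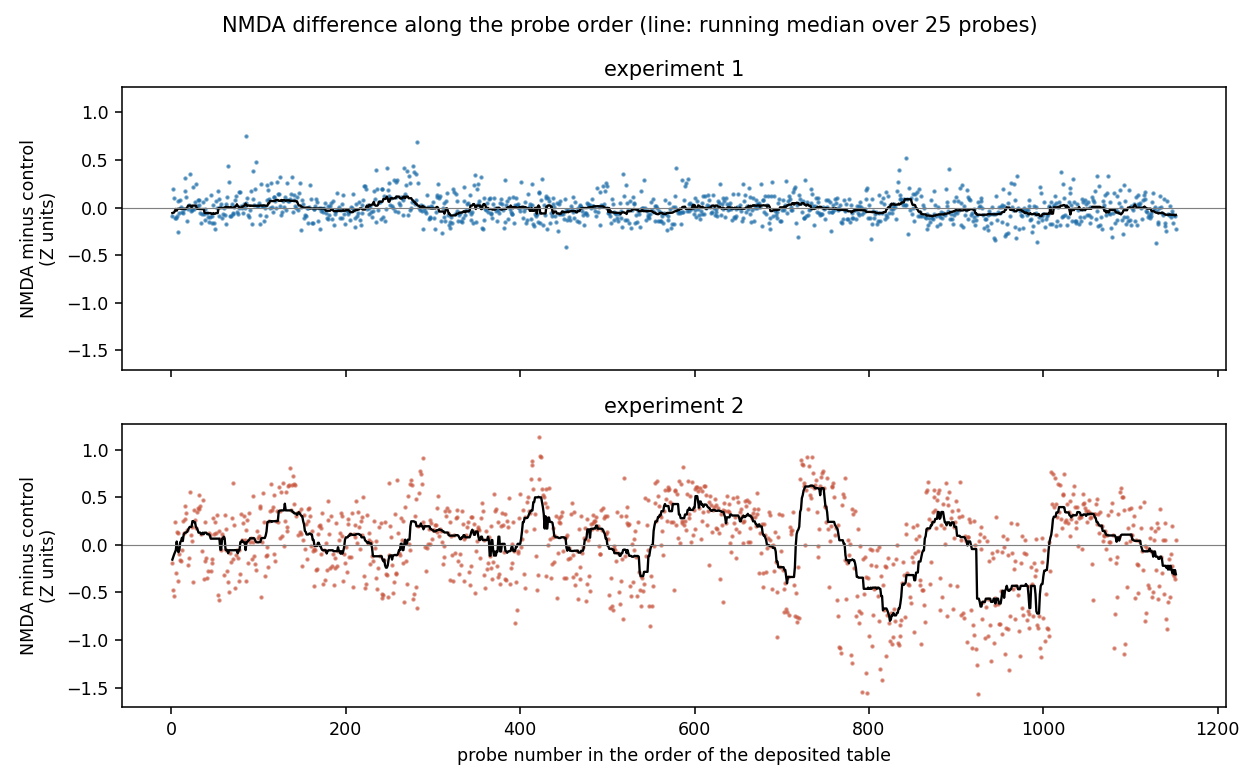
NMDA minus control in Z units (vertical axis) of every probe against its number in the deposited table (horizontal axis), experiment 1 above and experiment 2 below, with a black running median over 25 probes. The line stays near 0 in experiment 1 and swings widely in experiment 2, where the stretch from 769 to 864 has a median of -0.41.

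Experiment 2 also depended on how bright a probe was. Its difference correlated with the mean of the 2 arrays at r = 0.31 across probes, against -0.02 in experiment 1. Of the 231 brightest probes of experiment 2, 209 were higher under NMDA (median 0.28), and of the 230 probes next to the dimmest 231, 54 were higher (median -0.29). The SD of the experiment 2 control array was 0.857 and that of its NMDA array 0.991, and scaling both to SD 1 removed the correlation by construction. With the running median removed the correlation rose to 0.53, and with the grid median removed to 0.49. Values given after those removals thus still depend on brightness. In experiment 1, 156 of the 231 dimmest and 176 of the 231 brightest probes were higher, against 50 of the 230 in the middle. In experiment 2, most COX3 probes lie among the brightest, and the part of brightness in their differences was not tested beyond the scaling above.

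Gene lists were described by how many of their probes were higher or lower in both experiments. None of the 17 lists with at least 3 probes had a probe that passed the adjusted test (limma). Oxidative phosphorylation had 9 of 11 probes higher in both and 0 lower in both, with medians of 0.19 and 0.22 in experiments 1 and 2, against -0.01 and 0.08 over all probes. Of its 11 probes, 7 are the COX3 probes already given. Scaled to SD 1, 6 of the 11 were higher in both. The nuclear-encoded members differed little: Atp5pb, Ndufaf1 and Atp5mc1, for parts of ATP synthase and an assembly factor of complex I, were at 0.04 to 0.07 in experiment 1 and 0.05 to 0.08 in experiment 2, and Atp5f1a was at -0.03 and 0.55.

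Chaperones had 7 of 11 probes higher in both experiments and 0 lower in both. Their medians were 0.08 and 0.31. Under quantile normalization the experiment 2 median was 0.11 and 2 probes were lower in both. With the running median removed that median was 0.26. Hspa8, the constitutive cytosolic chaperone Hsc70, had 5 probes, and these were higher by 0.08 to 0.14 in experiment 1, an SD of only 0.02 over probes. In experiment 2 they ran from -0.43 to 0.75. Probe 1024 read 1.36 and 1.46 in experiment 1 and -0.15 and 0.59 in experiment 2, and probe 123 read 0.88 and 1.02, then 0.10 and 0.70. Probe 1024 lies among probes 1009 to 1032, where the experiment 2 median was 0.41. The low value in experiment 2 was that of probe 816, which lies in the stretch of low probes. It was at 0.003 after removal of the local median. Hsp90ab1, the constitutive Hsp90, went from 0.41 to 0.55 and from 0.84 to 1.29. Dnaja1, a cochaperone of Hsc70, was at 0.03 in experiment 1 and -1.01 in experiment 2. Its probe, number 824, also lies in the low stretch from 769 to 864. Hspa8 has processed pseudogenes, and the signal of near-identical copies cannot be told apart on such probes.

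Translation factors had 7 of 12 probes higher in both and 1 lower in both, with medians of 0.02 and 0.23. Eef1a1, which delivers aminoacyl-tRNA to the ribosome, made up 5 of the 12 and was at -0.01 to 0.14 in experiment 1 and 0.19 to 0.69 in experiment 2. Its probe 268 read 0.32 and 0.46, then 0.72 and 1.11. Under quantile normalization the list's median in experiment 2 dropped to 0.04. Ribosomal proteins had 5 of 8 probes higher in both, with medians of 0.04 and 0.15. Rpl13 read -0.63 and -0.52, then -0.53 and -0.19, with both NMDA arrays above both controls. Its probe lies in the high stretch of experiment 2, where its difference of 0.34 became 0.096 with the running median removed. Rplp0, a protein of the ribosomal stalk, differed by 0.06 in experiment 1 and by 0.92 in experiment 2.

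Cytoskeleton and neurite genes had 9 of 22 probes higher in both and 3 lower in both, with medians of 0.01 and 0.24. In experiment 1 they split evenly, 11 of 22 higher. In experiment 2, 17 of 22 were higher, against 230 of the 384 probes with 1 gene symbol. The experiment 2 median of the list was 0.19 when scaled to SD 1 and 0.10 under quantile normalization. With the running median removed it was 0.06. Besides Tuba1a, Nefl, the neurofilament light chain, was at 0.08 and 0.24, and Mapt, the microtubule-binding protein tau, at 0.08 and 0.53. Actb, cytoplasmic actin, had 5 probes between -0.03 and 0.09 in experiment 1 and between -0.09 and 0.25 in experiment 2. Probe 112 of Actb had both NMDA arrays above both controls and probe 978 both below, so probes of this gene did not match in direction. Probe 978 lies in a low stretch of experiment 2, where probes 961 to 984 had a median of -0.50.

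**Figure D5:**
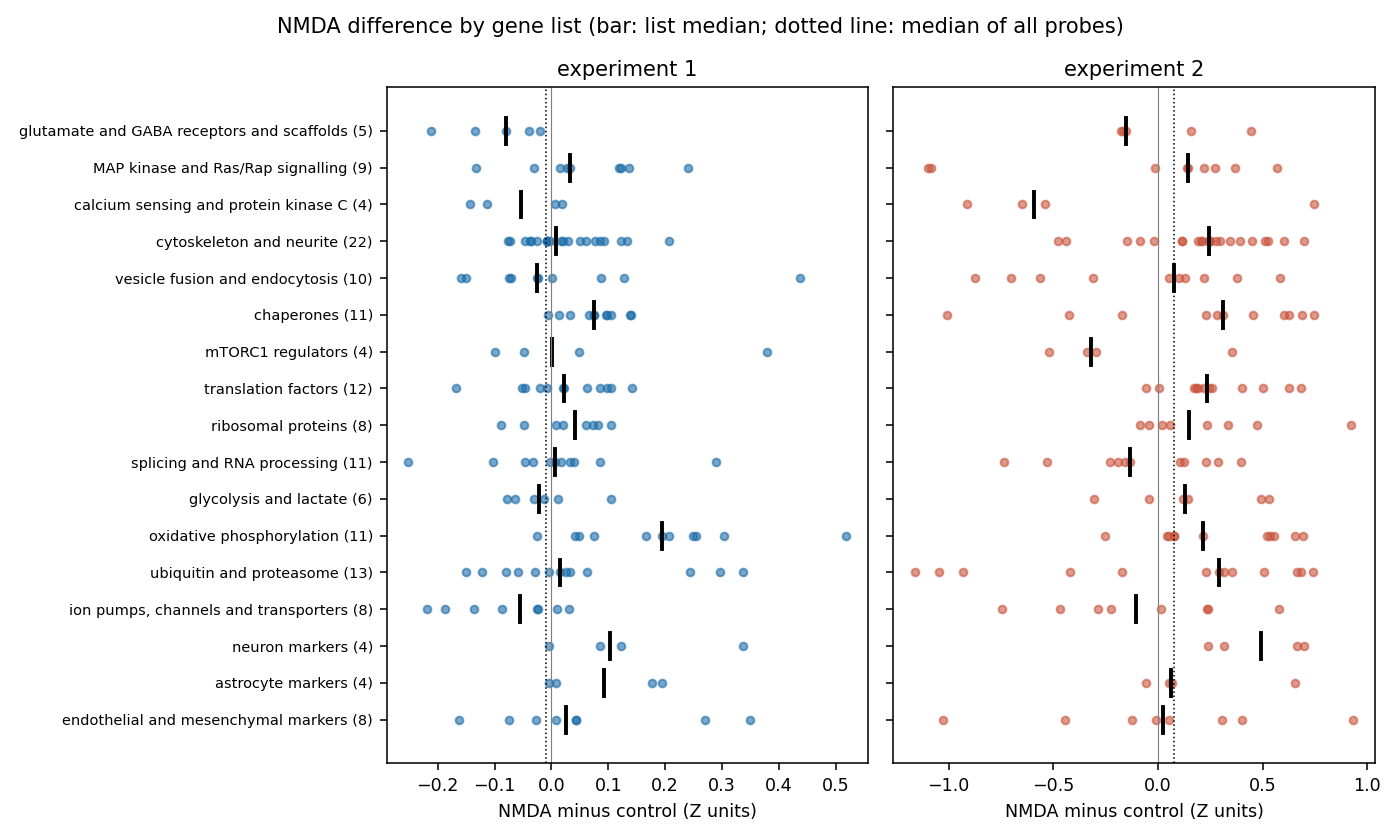
NMDA minus control in Z units for each probe of the gene lists with at least 3 probes (number of probes in parentheses), experiment 1 on the left and experiment 2 on the right with a wider scale. Bars mark list medians and the dotted line the median of all probes, -0.01 and 0.08; oxidative phosphorylation stands to the right in experiment 1 at 0.19 and calcium sensing to the left in experiment 2 at -0.59.

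Genes close to the receptor and its calcium signal were few. Of 5 probes for transmitter receptors and scaffolds, all were lower in experiment 1, by 0.02 to 0.21, and 3 were lower in both. Dlg4, the scaffold PSD-95 that holds nitric oxide synthase at NMDA receptors, read 0.06 in control and 0.02 under NMDA in experiment 1 and 0.22 and 0.06 in experiment 2. The mean difference was -0.10 (SE 0.18, limma adjusted p = 0.913), smaller than its error. Its probe is number 938, in a low stretch of experiment 2, and the difference there was 0.37 with the grid median removed. Shank1, a scaffold that links receptors to the cytoskeleton, was at -0.08 and -0.18, and Nlgn2, an adhesion protein of inhibitory synapses, at -0.02 and -0.15. Gabbr1 and Gabra2, subunits of GABA receptors, had opposite signs, at -0.21 and 0.44 and at -0.13 and 0.16. The median of this list was -0.08 in experiment 1 and -0.15 in experiment 2, and the second turned to 0.07 under quantile normalization and 0.02 with the grid median removed.

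Of the 4 probes for calcium sensing, the 2 for neuronal calcium sensors were lower in both experiments. Hpca, a calcium sensor that moves to membranes on binding calcium, read -0.76 in control and -0.91 under NMDA in experiment 1, and 0.34 and -0.58 in experiment 2. Ncald, of the same family, read -0.43 and -0.55, then -0.12 and -0.76, with both NMDA arrays below both controls. Prkca, a calcium-dependent protein kinase C, was at 0.02 and -0.54, and Cacnb1, a calcium channel subunit, at 0.007 and 0.75. The probes of Hpca and Prkca lie between 769 and 864 and that of Ncald between 913 and 1008, the stretches with low medians in experiment 2. In experiment 2, Hpca, Ncald and Prkca were at -0.53, -0.18 and -0.23 with the running median removed, and at -0.64, -0.33 and -0.33 with the grid median removed.

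In the MAP kinase and Ras list, 5 of 9 probes were higher in both and 1 was lower in both. Mapk8, the stress-activated kinase JNK1, was the lower one, at -0.99 and -1.12 in experiment 1 and at -0.38 and -1.48 in experiment 2 (mean -0.62, SE 0.22). Its probe, number 923, is also in a low stretch, and its experiment 2 difference was -0.86 with the grid median removed. Mapk9, the kinase JNK2, was at -0.03 and 0.37. Rap1gap, which switches off the GTPase Rap1, read -0.82 and -0.70, then -1.17 and -0.60. Its probe also lies in the high stretch, and its experiment 2 difference of 0.57 became 0.20 with the running median removed. Grb2, the adaptor between receptors and Ras activation, had a probe at 0.03 and -1.08 and another at 0.12 and -0.01.

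Vesicle fusion and endocytosis genes were split, with 3 of 10 probes higher in both and 3 lower in both. Eps15, an endocytic scaffold, read -0.65 and -0.80, then 0.26 and -0.62. Sv2b, a synaptic vesicle protein, was higher by 0.13 in experiment 1 and by 0.38 in experiment 2. Snap23, a SNARE of the plasma membrane, differed in opposite directions, from -1.69 to -1.25 in experiment 1 and from -0.87 to -1.44 in experiment 2. Of the 13 ubiquitin and proteasome probes, 4 were higher in both and 2 lower in both, and Psmd14, the deubiquitinase of the proteasome lid, was at -0.15 and -0.93.

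Splicing and RNA-processing genes had 3 of 11 probes higher and 3 lower in both. Glycolysis had 2 of 6 each way, with Pgk1 at 0.10 and 0.49 and Gapdh at -0.08 and -0.04. Transporters had 2 of 8 higher and 4 lower in both, and Slc38a9, the lysosomal amino acid transporter that signals to mTORC1, read -0.20 and -0.33, then -0.13 and -0.35. In the list of mTORC1 regulators no probe was higher in both and 1 of 4 was lower in both, that of Tsc2, at -0.05 and -0.34.

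Markers of cell types were checked against the label. The neuron markers were covered by Uchl1, Nefl and Stmn2, and 3 of these 4 probes were higher in both. Stmn2, a microtubule regulator of neurites, read -0.38 and -0.25, then -0.18 and 0.52. The astrocyte list was covered by Gfap, Glul and Sparc, of which Glul differed by -0.004 and -0.06 and Sparc by 0.01 and 0.05. These probes were not summed, and they do not measure how pure the cultures were, since scores of different probes have no common level. In the endothelial and mesenchymal list 3 of 8 probes were higher in both and 2 lower in both. Probes for oligodendrocyte or progenitor markers were absent, and Csf1r alone stood for microglia, at 0.08 and 0.49. In bulk RNA, fewer cells of a type and less RNA per cell cannot be told apart.

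A number of genes had differences of opposite sign in the 2 experiments. Snap23, Akt1s1, Fn1 and Snx27 were higher in experiment 1 by 0.35 to 0.44 and lower in experiment 2 by 0.44 to 0.60. On these probes the 4 arrays read between -1.99 and -0.68, the dim end of the scale, and they lie at numbers 267 to 281 of the probe order. Myl12b, a regulatory myosin light chain, was at 0.48 and -0.27. Anxa1, a phospholipid-binding protein, was at 0.27 and -1.03, and Mrpl15, a protein of the mitochondrial ribosome, at 0.22 and -1.09.

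Dpysl5, a growth cone protein of the collapsin response mediator family, had the lowest NMDA difference of experiment 1 over all 1152 probes. It went from 0.72 to 0.31 there, but differed by 0.08 in experiment 2. Mef2d, a calcium-regulated transcription factor of neurons, was at -0.26 and 0.03. Smpd3, a neutral sphingomyelinase, was at -0.23 and 0.35, Sf3a3, a splicing factor subunit, at -0.25 and 0.12, and Gfm1, a mitochondrial elongation factor, at -0.23 and 0.25. The reverse order was seen for Col1a2, a fibrillar collagen, at -0.16 and 0.93, for Larp1, a regulator of mRNAs for ribosomal proteins, at -0.02 and 0.78, for Cers5, a ceramide synthase, at -0.04 and 0.67, and for the dynein heavy chain Dync1h1 at -0.05 and 0.60. Psmc3, an ATPase of the proteasome, was at 0.03 and -1.16. With 1 array per group in an experiment, the difference between the experiments has no test for a single gene.

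Arrays with nitroarginine gave another value in each experiment, shown here for 6 genes chosen after their values in experiment 2 were seen. Gfap probe 888 read -0.20 in control, -0.002 under NMDA and -0.07 with nitroarginine added in experiment 1, and -0.17, 0.49 and -0.22 in experiment 2. Stmn2 read -0.38, -0.25 and -0.42, then -0.18, 0.52 and -0.28. In both experiments of Stmn2 the nitroarginine array was the lowest. Polr2m read -1.23, -1.04 and -1.21, then -1.56, -1.07 and -1.76. Rap1gap read -0.82, -0.70 and -0.70, then -1.17, -0.60 and -1.24. For Rap1gap the nitroarginine array lay near NMDA in experiment 1 and near control in experiment 2. Golm2 read -0.42, -0.59 and -0.62, then -0.01, -1.06 and -0.98. Mapk8 read -0.99, -1.12 and -1.19, then -0.38, -1.48 and -1.40. These values share the NMDA array with the comparison above, and so are set side by side only. The probes of Rap1gap, Polr2m and Gfap lie where the experiment 2 difference of NMDA from control was high by position. Those of Golm2 and Mapk8 lie in the low stretches. The part of position in the nitroarginine values was not tested.

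The NMDA difference of this set was tested against that of the MEK set, in which the same agonist was given. In that set the first control array is offset by 1 row (r with the median array 0.103, and 0.823 when moved), so it was left out and the MEK set difference rests mainly on experiment 2. Limma called 0 of 1152 probes (0%) for the difference between sets, and 54 (4.69%) had an unadjusted p under 0.05. The genes named below had an adjusted p of 0.698 each.

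The NMDA difference was higher in the NOS set than in the MEK set for Ldha, a lactate dehydrogenase subunit, by 0.91 (SE 0.27). For COX3 probe 1022 it was higher by 0.70 (SE 0.22), for Akt1s1 probe 674 by 0.68 (SE 0.22) and for Cand1 probe 259 by 0.65 (SE 0.23). For Tcf4, a neurodevelopmental transcription factor, it was higher by 0.59 (SE 0.21). The Ldha probe was at -0.03 and 0.53 in the NOS set and at -0.71 in MEK set experiment 2, while the other was at 0.01, 0.14 and -0.02. For COX3, the 7 probes ran from -0.30 to 0.14 in MEK set experiment 2, with 2 of 7 higher. The NMDA difference was lower in the NOS set for Ap2m1, at -0.77 (SE 0.25) for the NOS set minus the MEK set. The same held for the clathrin accessory protein gene Necap2, -0.74 (SE 0.29), and Cntfr, a cytokine receptor subunit, -0.67 (SE 0.30). Nefl was at -0.62 (SE 0.26) and the fibrillin gene Fbn1 at -0.47 (SE 0.20). Ap2m1 was at -0.16, -0.31 and 0.46 in the 3 experiments. Nefl was higher under NMDA in both NOS experiments, so its negative value reflects a larger rise in the MEK set. The Akt1s1 probes were at -0.52 and -0.30 in NOS set experiment 2 and between -0.79 and -0.78 in MEK set experiment 2. With the offset array moved by 1 row and kept, 6 of these 10 differences shrank by more than 1.5 times: COX3 probe 1022 to 0.26 (SE 0.31), Cand1 to 0.38, Tcf4 to 0.12, Ap2m1 to -0.37, Necap2 to -0.37 and Nefl to -0.39. Leaving out the experiment 1 control of the NOS set, so that its value rested mainly on experiment 2, raised the calls to 28 probes.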

How the data were processed

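Scores per probe were read from the deposited series table. Every column has a mean of 0 and an SD of at most 1, so the deposited scores were centred and scaled within each array; how the authors did so, the scale before it, background correction and filters are not given in the sources used here. Direction was taken as that of brightness. The analysis had been designed for log2 values, and the same limma fit was run on the scores as deposited. Of 1152 probes, 384 had 1 symbol in the platform annotation (362 matched in the rat gene table, 22 kept as annotated), 6 had several and 762 had none. Such annotation dates from the array's design, so some names may be out of date.

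The fit used the 6 arrays of the NOS set (control, NMDA, nitroarginine) with the experiment number as a block (2 residual degrees of freedom), limma 3.58.1 in R 4.3.3, two-sided moderated tests and Benjamini-Hochberg adjustment over 1152 probes at 0.05. The pairing comes from the labels, which number the experiments; deviations of same-numbered arrays from their group means correlated at 0.874 to 0.930. The difference from the MEK set was an interaction over 11 rat arrays with experiment within set as a block (3 residual degrees of freedom). The SEs are moderated, with 15.53 total degrees of freedom for NMDA against control and 8.268 for the interaction. Within-experiment differences have 1 array per group and no test.

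Named genes were, among probes with 1 symbol, the 12 each way with the largest smaller difference over both experiments, the 5 each way largest in one experiment with the opposite sign in the other, up to 6 probes or the leading 4 of each list with at least 3 probes, the 5 each way with the smallest interaction p, and other probes of those genes. Mapk9, Mapt, Sub1, Csf1r and the nuclear-encoded oxidative phosphorylation genes fall outside this rule and were chosen after their values were seen. Of 27 lists, 17 had at least 3 probes, 5 had 1 or 2 and 5 had none. Members and lists were chosen with earlier results of these data known. Alternatives were scaling to SD 1, median centring, quantile normalization, removal of a running median over 25 probes, dim probes left out, no block, other sets of arrays, trend and robust moderation, array weights and each array left out. A local median on a grid of 12 probes per row (2 rows and columns each way) was added after seeing the data. The fit was tested on simulated data with independent noise of the same size in every array. That test did not include the wider spread of experiment 2 or its dependence on probe order and brightness. Python 3.11.15 with pandas 2.3.3 did the other steps.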

Additional observations from a re-analysis of the deposited data

How the results depend on the processing

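Limma called 0 probes for NMDA against control in the NOS set in 11 of the 12 other settings that leave out no array of the comparison. With trend and robust moderation it called 5, all higher and without a gene symbol. Without the replicate block it called 0 probes, and 0 had an unadjusted p under 0.05, against 76 with the block; over the other settings that count ran from 4 to 131. Leaving out 1 array gave 0 to 11 calls, the 11 without NOS set NMDA replicate 1, when the value rests mainly on experiment 2; all 11 were lower, and Ncln (-1.07, adjusted p = 0.0256 in limma) and Ctr9 were the named genes among them. Calls for the difference from the MEK set were 0 in all settings with the arrays kept, and 0 to 28 with 1 array out, the 28 without NOS set control replicate 1, Necap2, Grb2, Psmc3, Dnaja1 and Tmcc2 among them. Unadjusted counts with 1 array out ran from 2 to 263 and, for the difference from the MEK set, from 15 to 346. Most probes called without NOS set NMDA replicate 1 or without NOS set control replicate 1 lie in the low stretches of experiment 2. These run from 769 to 864 and from 913 to 1008. The probes of Ncln, Ctr9, Psmc3, Dnaja1 and Tmcc2 lie there, and those of Necap2 and Grb2 do not. Each of these fits holds only 1 array in a group. Without MEK set control replicate 2 no value could be had. With all 12 rat arrays as deposited, the difference between sets turned to -0.013 for the Akt1s1 probe, 0.75 for Necap2 and 0.19 for Nefl; the misaligned column is then a control. With the grid median removed Polr2m turned to -0.050.

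The correlation between experiments of 0.0244 was 0.108 under quantile normalization, -0.0458 with the running median removed, -0.0320 with the grid median removed and 0.175 with dim probes left out. Probes with the same direction numbered 578, and 310 of 576 with dim probes left out. Median centring moved the split of these probes to 507 higher and 128 lower, from 304 and 274, because it raised the median difference to 0.06 and 0.15. The number of arrays limits the precision.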
